A study of Mus musculus with 22 samples.

Results

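The 10 genes described here serve the defence, scavenging and signalling of macrophages, and were followed in the mouse spinal cord after the aorta had been clamped: Acod1, Nos2, Arg1, Chil3, Gpr84, Msr1, Cybb, Fcgr1, Mrc1 and Ccr2. They are 10 of the 18193 genes that the array measures with a probe set carrying 1 gene symbol. They were taken from a list of names, and each gene is read from its probe set with the highest mean over all arrays. The other probe sets, which 4 of the 10 genes have, served as a check.

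The study hybridised total RNA from whole cord tissue of wild-type C57Bl/6 mice, 10 to 12 weeks old, to 22 Affymetrix Mouse430_2 arrays. The cord was divided into a rostral part above T6 and a caudal part below T6. Clamped mice had their aorta closed for 7.5 min and were sampled at 24 h or at 48 h, and control mice had sham surgery. The groups are rostral sham (4 arrays), caudal sham (3), rostral 24 h (3), caudal 24 h (3), rostral 48 h (4) and caudal 48 h (4); the comparisons ask how the cord responds to clamping at each time, and whether the part below T6 responds differently from the part above it. All mice of both treatments share the wild-type genotype. Whether each array of a group stands for its own mouse is not stated in the labels, and the p-values therefore reflect only the spread seen among these samples, which may be technical. A rostral array numbered 276 is left out of the groups because its labels give both 24 h and 48 h.

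Macrophages of the cord are the resident microglia, the macrophages of its borders, and cells that enter from blood as monocytes. Under inflammatory signals such as bacterial products or interferon gamma they are known to switch on Nos2 and Acod1, whereas interleukin 4 and interleukin 13 are known to raise Arg1, Chil3 and Mrc1. Both programmes are textbook poles of a range, and in injured tissue genes of both can be found in the same cells.

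Promoters are shown for 3 of the members because their genes cover the contrast described below: Acod1 and Fcgr1, which were higher in caudal cord at 48 h, and Mrc1, which did not pass the test there. Each line gives the 120 bases before the RefSeq start of the gene (GRCm38.p6), read 5′ to 3′ on the gene's strand; capitals mark matches to a kappaB palindrome and an interferon regulatory factor element in Acod1, to a STAT pattern and the PU.1 core in Fcgr1, and to the PU.1 core in Mrc1.
Acod1 (chr14:103046892-103047011, + strand): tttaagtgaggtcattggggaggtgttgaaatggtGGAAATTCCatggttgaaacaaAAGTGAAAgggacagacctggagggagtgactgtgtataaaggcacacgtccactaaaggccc
Fcgr1 (chr3:96293970-96294089, - strand): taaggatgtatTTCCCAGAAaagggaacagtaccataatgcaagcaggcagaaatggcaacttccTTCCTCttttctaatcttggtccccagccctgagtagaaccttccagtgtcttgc
Mrc1 (chr2:14229294-14229413, + strand): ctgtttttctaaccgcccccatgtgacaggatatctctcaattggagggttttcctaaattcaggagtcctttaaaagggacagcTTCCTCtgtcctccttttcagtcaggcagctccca

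RefSeq promoters were at hand for 7 of the 10 genes (Acod1, Ccr2, Chil3, Cybb, Fcgr1, Gpr84 and Mrc1), and 6 letter patterns, chosen after the sequences had been seen, were searched on both strands of the 250 bases before the start. The kappaB palindrome, spelled GGAANTTCC, was found in 1 of the 7, in Acod1 between bases -85 and -77, and in 0.813% of 32851 promoters of the same length. The interferon regulatory factor element AANNGAAA was found in 2 of the 7, Acod1 and Cybb, against 21.3% of all promoters. The PU.1 core GAGGAA, named for a factor that macrophages depend on, was found in 3 of the 7 (Acod1, Fcgr1 and Mrc1) and in 23.3% of all. TTCNNNGAA, the STAT pattern, was found in Chil3 and in Fcgr1 between bases -109 and -101, and in 7.02% of all promoters. The AP-1 pattern TGANTCA was found in Cybb (6.75% of all promoters) and the TATA box TATAAA in Acod1 between bases -28 and -23 (12.4% of all). None of the 6 patterns is held by all 7 promoters, and a match here describes letters, not a bound site.

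All levels below are the authors' log2 RMA signals, on which 1 unit is a 2-fold change; the signals of different genes' probe sets are not comparable in height. The arrays had medians between 6.79 and 6.88 and lower quartiles between 5.17 and 5.52, and signals near or below the quartile are among the dim ones of an array. A few arrays stood apart. Caudal 48 h array 271 had a narrower spread over probe sets than the others (SD 2.05 against 2.21 to 2.27). Its median correlation with them was lower (0.912 against 0.974 to 0.995). It also had the highest lower quartile, 5.52, where the next highest was 5.27. Gapdh probes at the 5′ end read lower than those at the 3′ end, a sign of shortened RNA, on caudal 48 h array 274 (by -1.05) and caudal sham array 280 (by -0.68), against -0.21 to 0.04 on the other 20. Both 24 h arrays numbered 283 went against their region labels: Hoxc10, a gene of the caudal cord, read 5.67 on the array labelled caudal and 10.14 on the one labelled rostral, where the other caudal arrays read 9.19 to 10.48 and the other grouped rostral ones 5.32 to 6.22. They were kept under their labels, and 24 h changes that move with them are also given without them. Heart muscle genes stood high in the rostral 48 h arrays (summed linear signal of 12 genes 13016 to 28537, caudal 48 h 1625 to 4548, all other grouped arrays at most 1493).

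**Figure D1:**
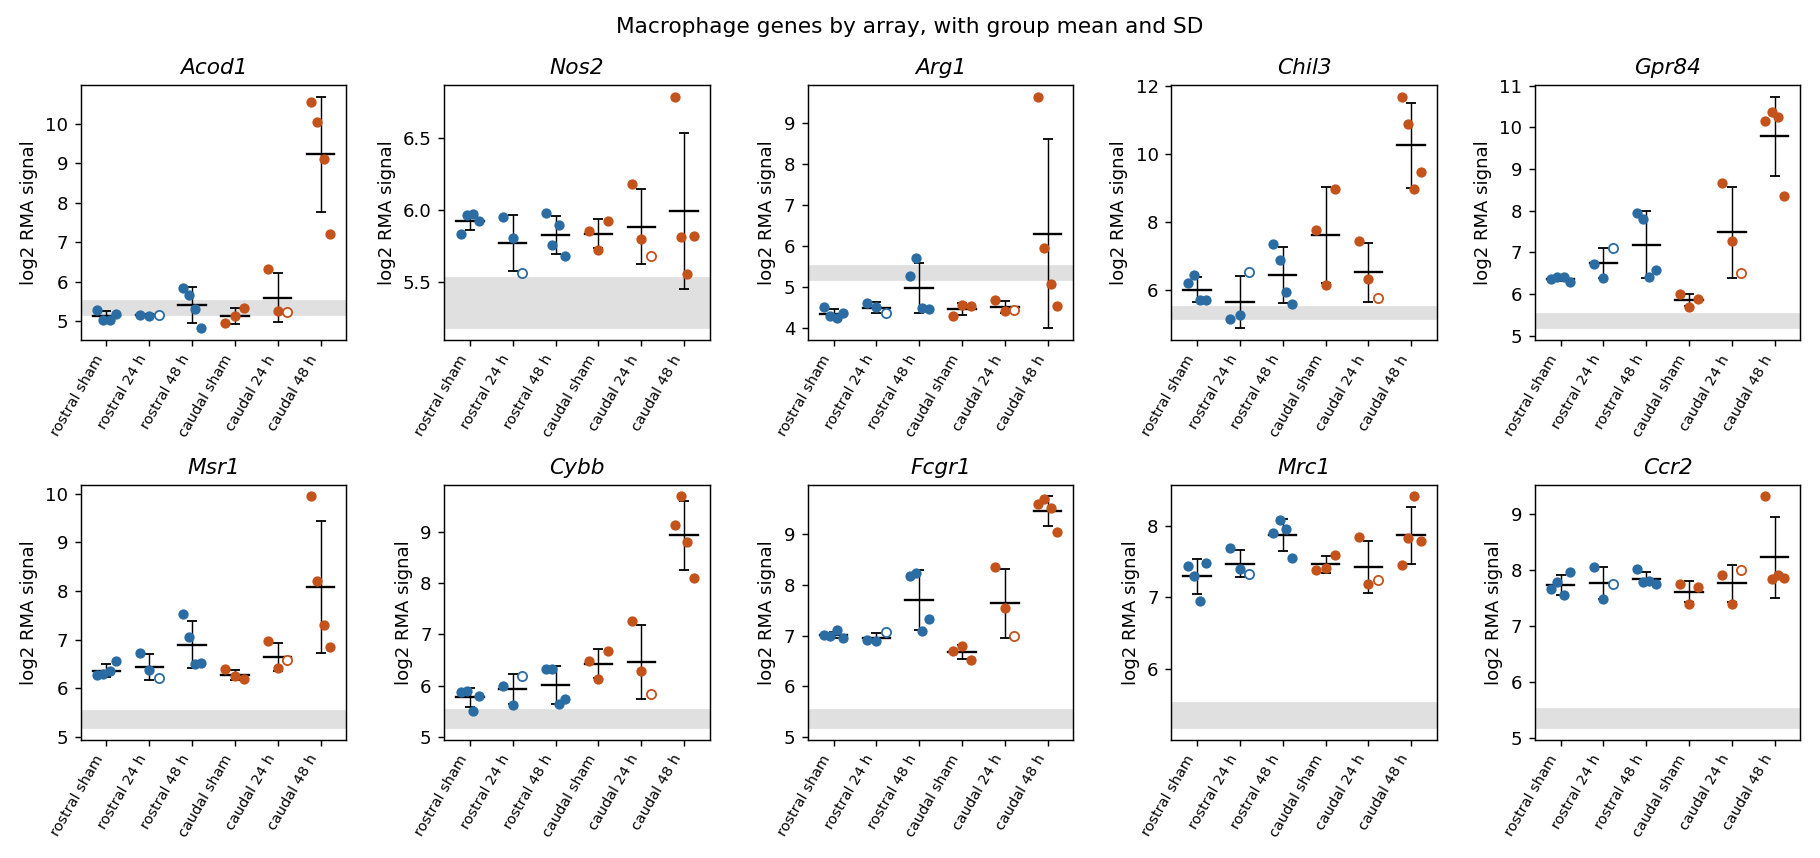
Log2 RMA signal (vertical axis) of each of the 10 genes on every grouped array (points), with group mean and SD (bars), for rostral (blue) and caudal (orange) cord; open points are the arrays numbered 283 and the grey band spans the arrays' lower quartiles. Acod1, Gpr84, Cybb and Fcgr1 lie higher on all 4 caudal 48 h arrays than on any caudal sham array, while Nos2 and Mrc1 show no such gap.

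In caudal cord at 48 h, 6 of the 10 genes were higher than in sham: Acod1, Gpr84, Fcgr1, Chil3, Cybb and Msr1, by 3.50-fold to 16.9-fold. Arg1, Ccr2, Mrc1 and Nos2 did not pass the test, and none of the 10 fell. Over all genes, 12.5% passed in this comparison and 5.52% passed as higher. The median change of the 10 genes was 2.17, against 0.00 over all genes. In RNA from whole tissue, a change in the number of cells and a change in RNA per cell cannot be told apart.

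Of the enzymes, Acod1, which makes itaconate from an intermediate of the citric acid cycle, read 10.54, 10.03, 9.11 and 7.21 on caudal 48 h arrays 271, 272, 273 and 274. The caudal sham arrays read 4.95, 5.14 and 5.33. Every clamped array thus lay above every sham array, and array 274 lay lowest. The change was 4.08 ± 0.50 (SE; 95% interval 3.03 to 5.13), a fold of 16.9, from 5.14 ± 0.19 (SD, n = 3) to 9.22 ± 1.46 (SD, n = 4), with a limma adjusted p of 7.0e-05. Without array 274 it was 4.75, a fold of 26.9.

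Nos2, the inducible nitric oxide synthase, read 6.79, 5.81, 5.55 and 5.82 on the same arrays and 5.86, 5.72 and 5.92 in caudal sham. Array 271 lay above the rest and the other 3 lay among or below the sham values, so the groups overlapped. The change of 0.16 ± 0.20 (95% interval -0.26 to 0.58) did not pass the test (adjusted p = 0.567). The upper end of the interval is below 1 unit, and all these signals but that of array 271 lie within 1 unit above the arrays' lower quartiles.

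Arg1, the arginase that draws on the same substrate as nitric oxide synthase, read 9.65, 5.96, 5.08 and 4.53 at caudal 48 h, against 4.30, 4.57 and 4.54 in caudal sham. It was the most uneven of the 10 genes: array 271 stood far above the rest, arrays 272 and 273 lay above sham, and array 274 lay within sham. The change of 1.84 ± 0.74 did not pass (adjusted p = 0.0940). Without array 271 it was 0.73 (adjusted p = 0.108), and without array 274, which has the sign of shortened RNA, it was 2.43 and passed (adjusted p = 0.0153). Without caudal arrays 271, 274 and 280 it was 1.09 (adjusted p = 0.0217).

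Cybb encodes the catalytic subunit of the phagocyte NADPH oxidase, which makes superoxide. Its signal was 9.13, 9.69, 8.81 and 8.09 at caudal 48 h and 6.48, 6.13 and 6.68 in caudal sham, with no overlap. The 4 clamped arrays were close to each other (SD 0.67), and the change was 2.50 ± 0.32 (adjusted p = 9.2e-05).

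Among the receptors, Gpr84, which senses medium-chain fatty acids and is induced on activated myeloid cells, read 10.15, 10.37, 10.26 and 8.35 at caudal 48 h and 6.00, 5.70 and 5.88 in caudal sham. Arrays 271 to 273 lay close together and array 274 lay well below them, though still above all sham arrays. The change was 3.92 ± 0.48, a fold of 15.2 (adjusted p = 7.2e-05).

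Fcgr1, the high-affinity receptor for immunoglobulin G, had the smallest spread of the 6 genes called. Its signals were 9.59, 9.69, 9.52 and 9.04 at caudal 48 h (SD 0.29) and 6.69, 6.80 and 6.53 in caudal sham. The groups were far apart, with a change of 2.79 ± 0.27, a fold of 6.90, and the lowest adjusted p of the 10 genes (8.8e-06).

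Msr1, a scavenger receptor that takes up modified lipoproteins and debris, read 9.95, 8.21, 7.31 and 6.85 at caudal 48 h and 6.38, 6.25 and 6.18 in caudal sham. The groups did not overlap, but the clamped arrays spanned over 3 units, with array 271 highest. The change was 1.81 ± 0.46 (adjusted p = 0.0174). It was 1.18 without array 271 and still passed (adjusted p = 0.00902), whereas leaving out any 1 of the 3 caudal sham arrays raised the adjusted p to 0.0576, 0.0579 or 0.0629.

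Mrc1, the mannose receptor of border macrophages and of interleukin 4 responses, read 7.45, 7.83, 8.41 and 7.79 at caudal 48 h and 7.38, 7.41 and 7.60 in caudal sham. Array 271, on which Arg1 and Msr1 were highest, had the lowest Mrc1 signal of the 4 and lay within sham. The change of 0.41 ± 0.20 did not pass (adjusted p = 0.156). Without caudal arrays 271, 274 and 280 it was 0.73 and passed (adjusted p = 0.0311).

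Ccr2, the receptor through which inflammatory monocytes follow CCL2, read 9.31, 7.83, 7.90 and 7.85 at caudal 48 h and 7.74, 7.39 and 7.70 in caudal sham. All 4 clamped arrays lay above sham, 3 of them by little and array 271 by far. The change of 0.61 ± 0.27 did not pass (adjusted p = 0.118), and it was 0.25 without array 271 (adjusted p = 0.3004).

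Chil3 encodes a secreted chitinase-like protein that alternatively activated macrophages make and that neutrophils also carry. Its signal was 11.70, 10.90, 8.97 and 9.47 at caudal 48 h, but caudal sham was itself spread over 7.77, 6.16 and 8.98, so that the groups touched. The change was 2.62 ± 0.66 (adjusted p = 0.0157). Leaving out caudal sham array 278 or 279 raised the adjusted p to 0.0551 or 0.0986, with changes of 2.69 and 1.89, leaving out array 280 gave 3.29 (adjusted p = 0.00896), and without array 271 the change was 2.15 (adjusted p = 0.0308). The summed linear signal of 10 neutrophil genes followed a similar order in caudal sham (6555, 2618 and 10149 on arrays 278, 279 and 280), and ran from 3700 to 26017 at caudal 48 h. Of those 10 genes 1, Mmp8, was higher at caudal 48 h, with a median change of 0.25; S100a8 changed by 0.87 ± 0.61 and S100a9 by 1.17 ± 0.63, neither past the test. The part of neutrophils in the Chil3 signal was not tested.

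Of the 10 genes, 6 had all 4 caudal 48 h arrays above all 3 caudal sham arrays, namely Acod1, Gpr84, Fcgr1, Cybb, Msr1 and Ccr2; 8.9% of all genes met that. By the spread among the 4 clamped arrays, the genes ran from Fcgr1 (SD 0.29), Mrc1 (0.40), Nos2 (0.55), Cybb (0.67) and Ccr2 (0.73) through Gpr84 (0.96), Chil3 (1.26), Msr1 (1.37) and Acod1 (1.46) to Arg1 (2.31). An SD from 4 arrays is imprecise, and the differences between these SDs were not tested. Array 271 held the highest signal of Acod1, Nos2, Arg1, Chil3, Msr1 and Ccr2, and array 272 that of Gpr84, Cybb and Fcgr1. On arrays 271, 272, 273 and 274, 9, 9, 8 and 8 of the 10 genes lay above every caudal sham array. Over all genes the shares were 50.6%, 27.2%, 27.6% and 34.7%, so that high readings on array 271 were not particular to these genes. Leaving out array 271 kept the adjusted p of all 6 called genes below 0.05, between 2.3e-05 for Fcgr1 and 0.0308 for Chil3.

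A list of markers shared by macrophages and microglia moved with these genes, while the lists of resting microglia and of border macrophages had smaller medians. Of the 10 genes listed as shared, 8 were higher at caudal 48 h, with a median change of 1.47. Whether they are confined to these cells was not tested. Cd68, a lysosomal protein of phagocytes, changed by 2.47 ± 0.35. The summed linear signal of the 10 was 9792 to 19220 at caudal 48 h against 5990 to 6529 in caudal sham. Of 9 measured genes of resting microglia, 2 were higher and 1 lower (median change -0.06), of 7 genes of circulating monocytes 3 were higher (median 0.28, summed signal 2588 to 3146 against 1172 to 1560), and of 8 genes of border macrophages 1 was higher (median 0.42). T and B lymphocyte genes had changes of -0.07 to 0.29, and 0 of 7 passed. Among other cell types, endothelial genes were lower in 5 of 8 (median -0.56), neuron genes in 2 of 8 (median -0.41), and heart muscle genes were higher in 6 of 12 and lower in 1 (median 1.44). The part of each cell type in the members' changes was not tested.

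**Figure D2:**
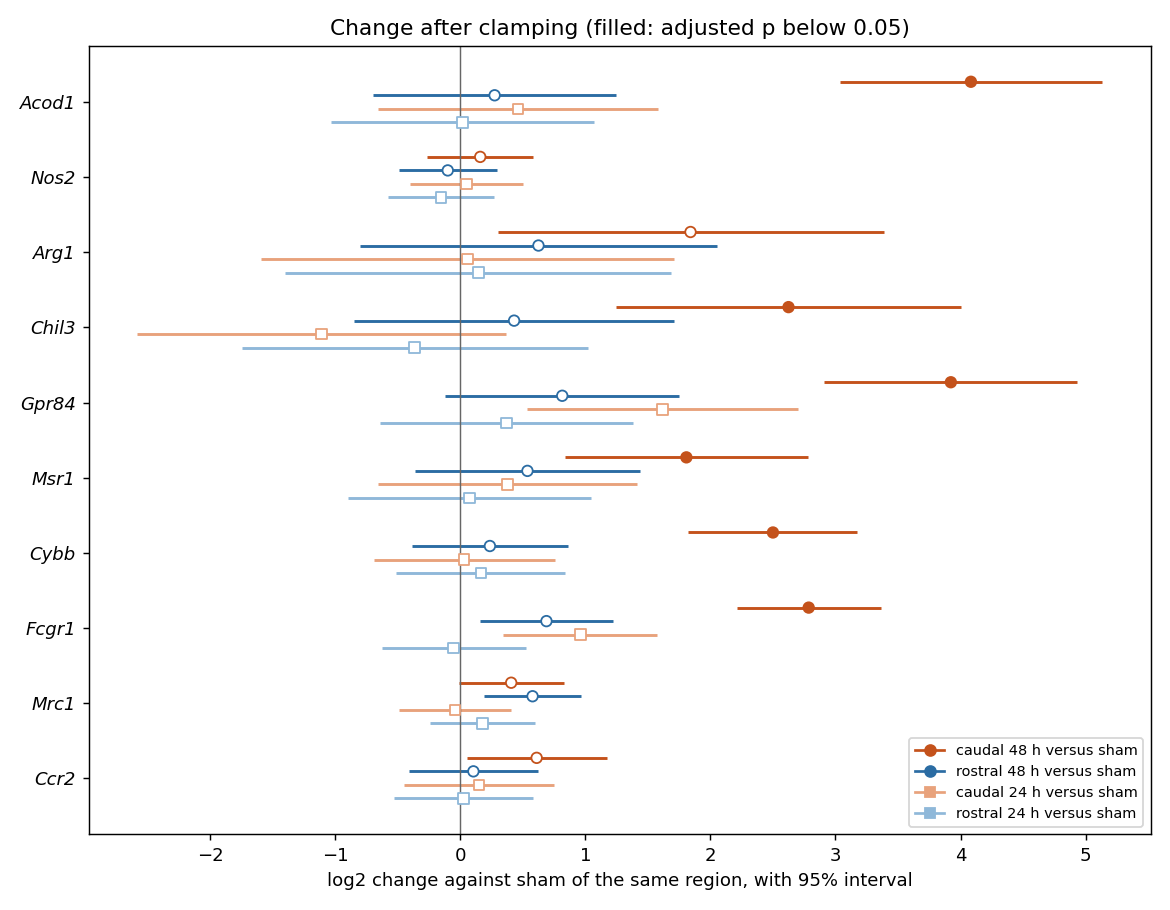
Log2 change of each gene against sham of the same region (horizontal axis) with its 95% interval, for caudal and rostral cord at 24 h and 48 h; filled symbols passed an adjusted p of 0.05. All 6 filled symbols belong to caudal cord at 48 h, from 1.81 for Msr1 to 4.08 for Acod1.

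In rostral cord at 48 h, none of the 10 genes passed the limma test, where 0.61% of all genes did (0.467% as higher). At an unadjusted p under 0.05 there were 2, Mrc1 and Fcgr1, against 7.08% of all genes. Of the 10 shared macrophage and microglia genes 0 passed there (1 at an unadjusted p under 0.05), with a median change of 0.06. The median change of the 10 members was 0.48, against -0.02 over all genes. All but Nos2 (-0.10 ± 0.19) had a change above 0, and the share of all genes above 0 is not given.

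The rostral 48 h arrays were split among themselves. Gpr84 read 7.94, 7.80, 6.40 and 6.58 on arrays 271, 272, 273 and 274, against 6.35, 6.40, 6.40 and 6.30 in rostral sham. Fcgr1 read 8.18, 8.22, 7.08 and 7.32 against 7.01, 6.98, 7.11 and 6.95. In both genes arrays 271 and 272 lay over 1 unit above sham while array 273 lay within it, and the changes of 0.82 ± 0.45 (adjusted p = 0.838) and 0.69 ± 0.25 (adjusted p = 0.398) did not pass. The same arrays stood out over the whole set: on rostral array 271 all 10 genes, and on array 272 8 of them, lay above every rostral sham array, whereas on arrays 273 and 274 2 and 3 did. The share of all genes above every rostral sham array was 25.6%, 23.8%, 21.8% and 18.5% on arrays 271, 272, 273 and 274.

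Mrc1 was the exception, with 7.90, 8.08, 7.96 and 7.55 at rostral 48 h against 7.44, 7.30, 6.95 and 7.48 in rostral sham. It was the only 1 of the 10 genes whose rostral groups did not overlap, as for 4.63% of all genes, and its change of 0.58 ± 0.19 did not pass (adjusted p = 0.257). Its rostral change was close to its caudal one of 0.41, and the difference of the changes was -0.17 ± 0.27.

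The remaining members did not pass at rostral 48 h. Acod1 read 5.86, 5.67, 5.32 and 4.82 at rostral 48 h against 5.04 to 5.29 in sham, below or just above the arrays' lower quartiles. Arg1 read 5.27, 5.72, 4.49 and 4.47 against 4.25 to 4.53, again with arrays 271 and 272 above. Msr1 changed by 0.54 ± 0.43, Chil3 by 0.43 ± 0.61, Cybb by 0.24 ± 0.30 and Ccr2 by 0.11 ± 0.25, with overlapping arrays and adjusted p of 0.9999 each. With arrays weighted by their quality, a fit that called 10.2% of all genes, 4 members passed at rostral 48 h: Mrc1 (0.59, adjusted p = 0.00721), Fcgr1 (0.79, adjusted p = 0.0153), Arg1 (0.72, adjusted p = 0.0313) and Msr1 (0.63, adjusted p = 0.0319).

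**Figure D3:**
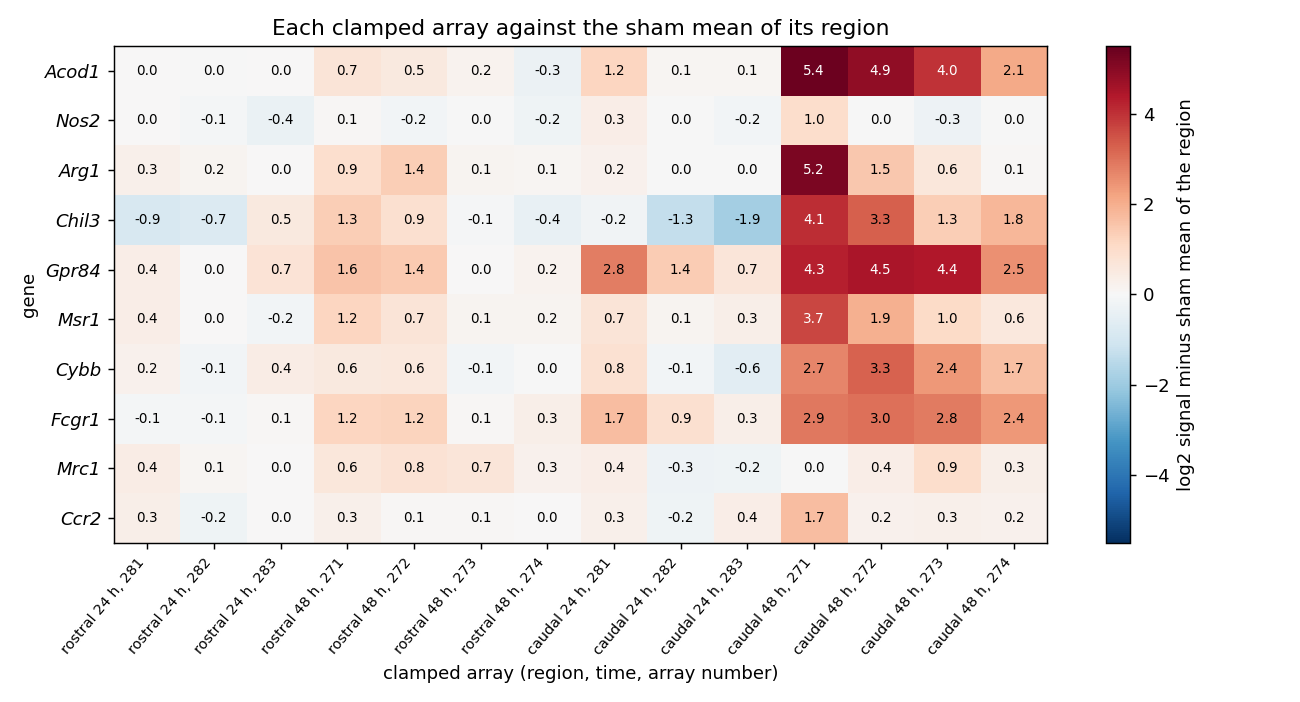
Each clamped array's log2 signal minus the sham mean of its region (colour and printed value), genes in rows and arrays in columns. The rows of Acod1, Gpr84, Cybb and Fcgr1 are raised on all 4 caudal 48 h arrays, while Arg1 reaches 5.2 on array 271 and 0.1 on array 274.

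At 24 h none of the 10 genes passed in either region; over all genes the share was 0.0055% in caudal cord and 0% in rostral cord. The 24 h and 48 h comparisons share their sham arrays. At an unadjusted p under 0.05 there were 2 in caudal cord (Gpr84 and Fcgr1, against 2.9% of all genes) and 0 in rostral cord (0.781% of all).

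In caudal cord Gpr84 read 8.66, 7.26 and 6.51 on arrays 281, 282 and 283 and at most 6.00 in sham, a change of 1.62 ± 0.52 that ranked as the 5th highest of all genes but did not pass (adjusted p = 0.9998). Fcgr1 read 8.36, 7.55 and 6.99 against at most 6.80, a change of 0.96 ± 0.29 at rank 35 (adjusted p = 0.9998). Both genes had their highest 24 h signal on array 281 and their lowest on array 283, the one with the opposite region genes. Without both arrays numbered 283 the changes were 2.10 and 1.28 (adjusted p = 0.9999 and 0.866), and without array 281 they were 1.03 and 0.60.

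Msr1, at 6.97, 6.40 and 6.58, was the third gene whose caudal 24 h arrays all lay above sham (highest 6.38), by a change of 0.38 ± 0.49. Such a gap was found for 8.65% of all genes. Acod1 read 6.31 on array 281 and 5.25 and 5.24 on the others, against sham values up to 5.33. Cybb, at 7.26, 6.28 and 5.85, straddled its sham values, with a change of 0.03 ± 0.34. Chil3 was lower by value, at 7.46, 6.34 and 5.78, with a change of -1.11 ± 0.71 that did not pass. Without both arrays numbered 283 the caudal changes were 0.34 for Cybb, -0.73 for Chil3, 0.64 for Acod1 and 0.41 for Msr1, again not past the test (adjusted p = 0.9999). Array 281 thus had 9 of the 10 genes above all caudal sham arrays, and arrays 282 and 283 had 3 and 4; over all genes the shares were 25.9%, 29.4% and 29.6%. Rostral changes at 24 h ran from -0.36 for Chil3 to 0.37 for Gpr84. Without both arrays numbered 283 these were -0.81 and 0.19, and the highest was 0.25 for Mrc1, with adjusted p of at least 0.9999. Of the 10 genes, 0 had all rostral 24 h arrays above all rostral sham arrays, where 3.47% of all genes did.

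From 24 h to 48 h in caudal cord, 5 of the 10 genes rose, where 6.69% of all genes passed, 4.24% as higher and 2.45% as lower. Chil3 rose by 3.73 ± 0.66 (adjusted p = 0.00252), Acod1 by 3.62 ± 0.50 (0.000576), Cybb by 2.47 ± 0.32 (0.000325), Gpr84 by 2.30 ± 0.48 (0.00750) and Fcgr1 by 1.83 ± 0.27 (0.000863). The caudal 24 h arrays of Gpr84 overlapped those at 48 h, since array 281 (8.66) lay above 48 h array 274 (8.35); those of the other 4 did not, as for 5.91% of all genes. Without both arrays numbered 283 the rise of Gpr84 was 1.82 and no longer passed (adjusted p = 0.103), while Acod1, Chil3, Cybb and Fcgr1 still passed. When only the caudal 24 h and 48 h arrays were fitted, no gene of the whole array passed, and these 5 had an adjusted p of 0.226 to 0.330. Msr1 (1.43 ± 0.46, adjusted p = 0.0687) and Arg1 (1.78 ± 0.74, adjusted p = 0.143) did not pass. In rostral cord none of the 10 passed between the times (0.363% of all genes did, 0.0165% as lower). Fcgr1 was the 1 with an unadjusted p under 0.05 (0.74 ± 0.27, adjusted p = 0.544) and the 1 whose 48 h arrays all lay above those of 24 h, where 4.64% of all genes did.

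Between the regions at 48 h, 5 genes were higher in caudal cord: Chil3 by 3.81 ± 0.61, Acod1 by 3.80 ± 0.46 (4.47 without caudal array 274), Cybb by 2.92 ± 0.30, Gpr84 by 2.60 ± 0.45 and Fcgr1 by 1.76 ± 0.25. Their adjusted p ran from 9.2e-06 for Cybb to 0.00134 for Gpr84. Over all genes 9.71% passed, 5.57% as higher and 4.14% as lower in caudal cord. Each of the 5 had its caudal and rostral arrays fully apart, as 5.23% of all genes did with caudal cord above; Gpr84, for example, read at least 8.35 in caudal and at most 7.94 in rostral cord. Msr1 differed by 1.18 ± 0.43 and did not pass (adjusted p = 0.0851). The same-numbered 48 h arrays of both regions deviated together in all 4 pairs (r 0.246 to 0.534), and with the array number as a replicate block Msr1 passed (adjusted p = 0.0466 as a random and 0.0153 as a fixed block). Without caudal array 274 it differed by 1.59 (adjusted p = 0.0109), and without caudal array 271 by 0.56 (adjusted p = 0.190). Ccr2 differed by 0.38 ± 0.25 on its brightest probe set (adjusted p = 0.315), and by 0.77 and past the test when its probe sets were averaged (adjusted p = 0.0293). Gpr84 missed when only the arrays of the comparison were fitted (adjusted p = 0.0725). Mrc1 had a mean of 7.87 in both regions, and the 95% interval of its difference ran from -0.39 to 0.39.

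In sham cord none of the 10 genes passed between the regions (0.335% of all genes did), with 1, Chil3, at an unadjusted p under 0.05 (5.51% of all genes): it was higher by 1.61 ± 0.66 in caudal cord (adjusted p = 0.774). Cybb lay higher on all 3 caudal sham arrays (6.13 to 6.68) than on the 4 rostral ones (5.51 to 5.90), and Gpr84 and Fcgr1 lay lower on all 3. The share of all genes was 12.1% fully higher and 8.67% fully lower in caudal sham. When only the sham arrays were fitted, these 3 passed, as did 4.59% of all genes in that fit, with differences of 0.66 for Cybb, -0.50 for Gpr84 and -0.34 for Fcgr1 (adjusted p = 0.0123, 0.00314 and 0.0318).

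The clamp effect at 48 h itself differed between the regions for 4 genes, all larger in caudal cord, where 0.561% of all genes passed this test, 0.407% in that direction and 0.154% in the other. The caudal change exceeded the rostral one by 3.81 ± 0.68 for Acod1 (adjusted p = 0.0102; 4.48 without caudal array 274), by 3.11 ± 0.66 for Gpr84 (0.0347), by 2.26 ± 0.44 for Cybb (0.0193) and by 2.10 ± 0.37 for Fcgr1 (0.0102). Acod1 and Fcgr1 passed in each of the 21 fits that left out 1 array (highest adjusted p 0.0496 and 0.0412). Cybb missed in 3 of them, and Gpr84 in 13, with adjusted p up to 0.0845 and 0.123. Gpr84 also missed when every probe set was tested as its own feature (limma p adjusted over all probe sets 0.0526). Chil3, higher in caudal than in rostral cord at 48 h but also by value in sham, had an excess of 2.19 ± 0.90 that did not pass (adjusted p = 0.377). The excess was 1.27 ± 0.63 for Msr1, 1.22 ± 1.003 for Arg1, 0.51 ± 0.36 for Ccr2, 0.26 ± 0.28 for Nos2 and -0.17 ± 0.27 for Mrc1.

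Other probe sets of the same genes gave the same direction at caudal 48 h and different sizes. The 3 of Cybb changed by 2.50, 2.22 and 1.97, and each passed with p adjusted over all probe sets. The one with 2.22 missed the test of the regional difference in clamp effect (2.20 ± 0.59, adjusted p = 0.162), which the others passed. The 2 of Fcgr1 changed by 2.79 and 0.87, both past the test (adjusted p = 1.8e-05 and 0.00824). The second did not pass from 24 h to 48 h in caudal cord (0.59, adjusted p = 0.0755), between the regions at 48 h (0.47, 0.101) or for the regional difference in clamp effect (0.64, 0.410). Msr1 was less even: beside 1.81 ± 0.46 (adjusted p = 0.0205 over all probe sets) its others gave 2.54 ± 0.52 (0.00519), 1.14 ± 0.41 (0.0776) and 0.37 ± 0.14 (0.0910). For Ccr2 the brightest probe set and 2 others did not pass (0.61, 0.50 and 0.44), whereas the fourth changed by 0.89 ± 0.26 and did (adjusted p = 0.0399). Between the regions at 48 h its brightest probe set did not pass and the other 3 did, at 1.19 (adjusted p = 0.00679), 0.78 (0.0399) and 0.75 (0.0464). Those 3 are dim, near or below the arrays' lower quartiles (5.17 to 5.52) on most arrays. On caudal 48 h array 271 they read 6.92, 6.08 and 6.36, and on any other array at most 5.61, 5.07 and 5.22. The part of array 271 in each probe set's call was not tested. In that comparison Msr1 passed on the probe set with 2.54 against sham (1.69, adjusted p = 0.0379) and missed on the other 3. None of these probe sets passed at rostral 48 h.

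**Figure D4:**
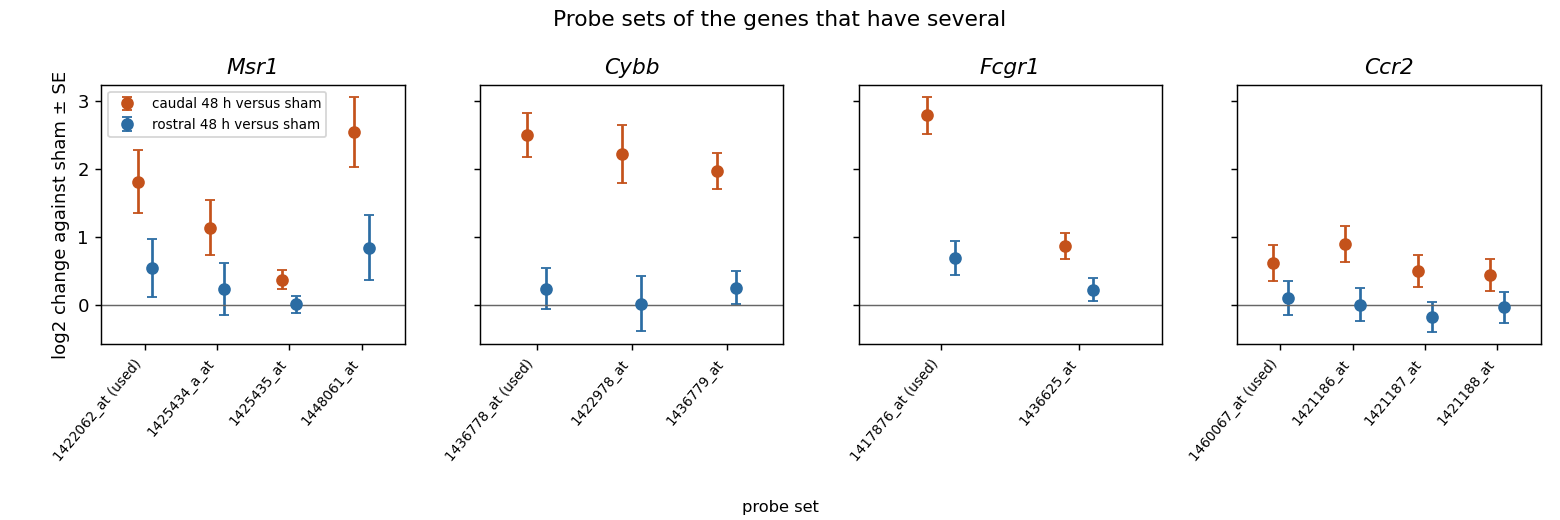
Log2 change against sham at 48 h (vertical axis, ± SE) for each probe set of the 4 genes with several, in caudal (orange) and rostral (blue) cord, the probe set used in the text first. All 13 caudal values lie above 0, from 0.37 to 2.79, and the size differs most within Msr1 and Fcgr1.

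The other genes of these pathways were taken from lists that had been chosen with earlier results of the data known. Their counts at caudal 48 h stand beside 5.52% of all genes that passed as higher there and 7.02% as lower. Of the genes of inflammatory macrophages, 13 of 17 measured were higher at caudal 48 h and 0 lower, with a median change of 1.66. The cytokine Il6 changed by 7.14 ± 0.81, the interferon-induced chemokine Cxcl10 by 6.50 ± 0.80 and the costimulatory Cd86 by 1.25 ± 0.16, with adjusted p up to 9.2e-05. Of the genes of alternative activation, 3 of 20 were higher and 0 lower, with a median of 0.29: the transcription factors Klf4 (0.87 ± 0.17) and Myc (1.68 ± 0.35) and the transglutaminase Tgm2 (1.34 ± 0.31), which cells other than macrophages also express.

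Around the enzymes, 2 of 18 measured genes of arginine, nitric oxide and itaconate metabolism were higher and 0 lower (median 0.09). Gch1, which makes the cofactor of nitric oxide synthases, changed by 2.68 ± 0.54, and Odc1, which turns ornithine into polyamine, by 0.71 ± 0.17. Nos1, the neuronal synthase, had a value of -0.63 ± 0.21 and did not pass (adjusted p = 0.0536). Of the partners of Cybb in the NADPH oxidase, 4 of 7 measured were higher (median 1.19), among them the cytosolic subunits Ncf1 (1.39 ± 0.20) and Ncf4 (1.91 ± 0.40) and the small GTPase Rac2 (1.19 ± 0.19).

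Among receptors, all 6 measured Fc receptor and signalling genes were higher at caudal 48 h (median 1.39), Fcgr4 by 2.77 ± 0.40, Fcgr3 by 1.93 ± 0.26 and their shared signalling chain Fcer1g by 1.69 ± 0.25. Of 12 scavenger and endocytic receptors 4 were higher and 0 lower (median 0.23): Clec7a, a receptor for fungal glucans, by 3.24 ± 0.46, Cd68 by 2.47 ± 0.35, the lipoprotein receptor Olr1 by 1.79 ± 0.23, and Cd36. Of 15 genes of monocyte recruitment 9 were higher and 0 lower (median 0.86), led by the ligands of Ccr2: Ccl2 by 5.79 ± 0.75, Ccl12 by 5.41 ± 0.72 and Ccl7 by 4.42 ± 0.59. The chemokines thus rose, while their receptor Ccr2 did not pass the test on its brightest probe set (0.61 ± 0.27). Every caudal 48 h array of that probe set lay above sham. Another Ccr2 probe set did pass (0.89 ± 0.26, limma p adjusted over all probe sets 0.0399). It is a dim one that read 6.92 on caudal 48 h array 271 and at most 5.61 on any other array.

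At rostral 48 h, 1 of the 95 measured genes in these 7 lists passed (20 at an unadjusted p under 0.05, and 41 passed at caudal 48 h), Cd36, a fatty acid and scavenger receptor, at 3.54 ± 0.25 (adjusted p = 3.8e-08). Heart muscle, in which Cd36 is also abundant, had 10 of its 12 marker genes higher in the same comparison (median 4.94), and the part of such tissue in the Cd36 value was not tested. Genes among those with the smallest p of their lists otherwise missed, such as Ccl12 (1.99 ± 0.67, adjusted p = 0.299), Cxcl10 (1.81 ± 0.74, 0.522), Fcgr4 (1.10 ± 0.37, 0.315), Cd163 (0.90 ± 0.23, 0.102) and Gch1 (0.87 ± 0.50, 0.876). All of these examples were higher by value. Cd86, Fcgr3 and Ddah2, which had a smaller p than Cxcl10, Fcgr4 and Gch1 in the same lists, also missed. At 24 h 0 of the 95 measured genes of the 7 lists passed limma's test in either region, with 6 in caudal and 0 in rostral cord at an unadjusted p under 0.05.

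The clamp effect differed between the regions for Il6 (5.77 ± 1.11 larger in caudal cord), Il1b (4.13 ± 0.83), Ccl7 (3.65 ± 0.81), Clec7a (3.19 ± 0.62), Tnf (1.72 ± 0.37), Olr1 (1.61 ± 0.32) and Rac2 (1.18 ± 0.26), while for Cd36 it was larger in rostral cord (-2.20 ± 0.36). These 8 were the genes past that test in the 7 lists.

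**Figure D5:**
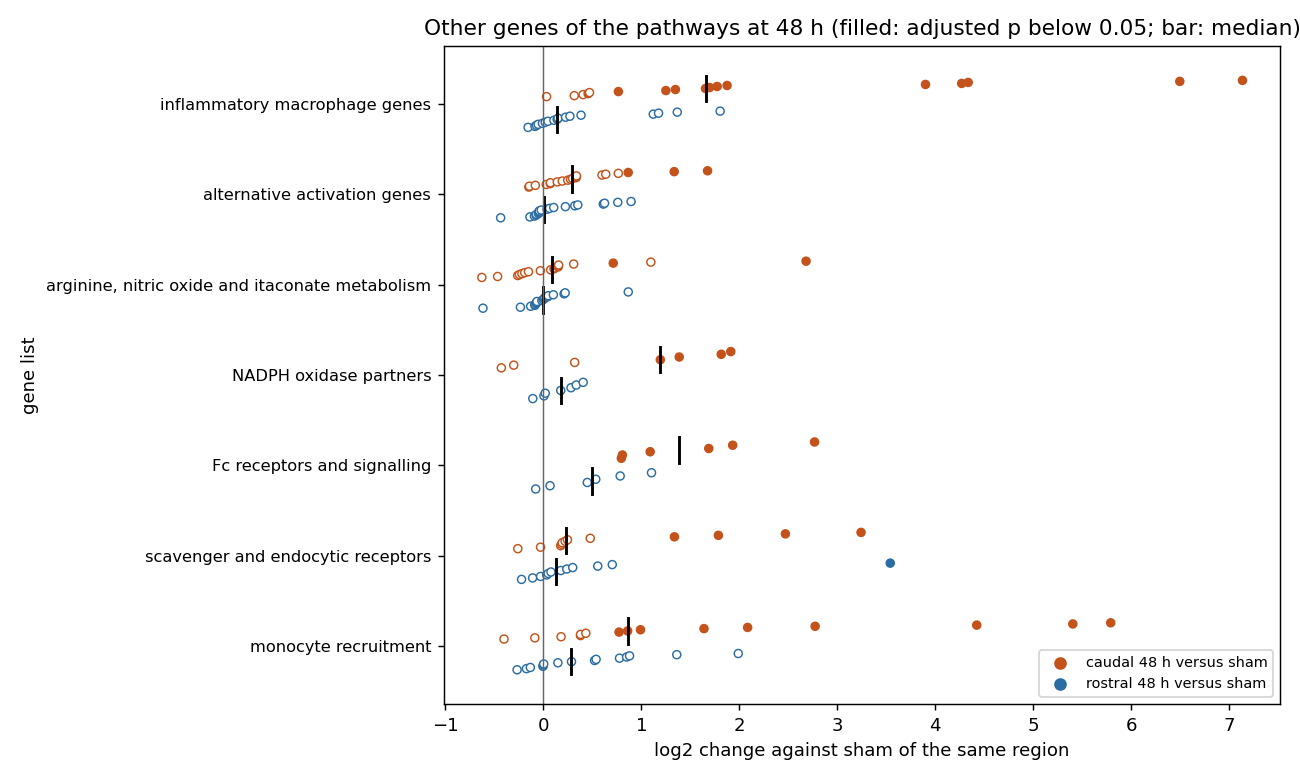
Log2 change against sham at 48 h (horizontal axis) of every measured gene of the 7 pathway lists, in caudal (orange) and rostral (blue) cord; filled points passed an adjusted p of 0.05 and black bars are list medians. Caudal medians run from 0.09 for arginine, nitric oxide and itaconate metabolism to 1.66 for inflammatory macrophage genes, and Cd36 is the 1 filled rostral point.

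The members differed in which genes they resembled. Over the 21 grouped arrays, which share the large caudal 48 h shift, Acod1 was most like Tnfaip3, an inhibitor of NF-kappaB signalling (r = 0.994), and the chemokine Cxcl2 (0.993). Fcgr1 was most like the interferon-induced Irf7 (0.979) and Parp9, and Gpr84 most like Fcgr1 itself (0.975) and Iigp1. Cybb was most like Rac2 (0.971), Chil3 like Plac8 (0.965), and Msr1 like the chemokine receptor Ccr1 (0.977). The nearest named genes of Arg1 were Mt4 (0.985) and Slamf7 (0.972), and those of Ccr2 were Ccdc180 (0.955) and Il4i1. Those of Nos2 were Tex47 (0.948) and Fbxo24, between which 1 gene with a clone or predicted name is left unnamed. Arg1, Ccr2 and Nos2 read 9.65, 9.31 and 6.79 on caudal 48 h array 271. On every other grouped array they read at most 5.96, 8.04 and 6.18. That array weighs heavily in their correlations, and its part was not tested. The 6 genes named for Arg1, Ccr2 and Nos2 did not pass the test at caudal 48 h. Those named here for Acod1, Fcgr1, Gpr84, Cybb, Chil3 and Msr1 did. Because neighbours were picked by correlation over the same arrays, this follows largely from the choice and is no separate result. Mrc1 had the weakest likeness to any gene, at most 0.873 with Wbp1l.

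Among the 10 genes themselves, correlations over the same arrays ran from -0.12 (Nos2 with Mrc1) to 0.975 (Gpr84 with Fcgr1). Acod1, Gpr84, Cybb and Fcgr1 correlated with each other at 0.896 to 0.975. Arg1 was most like Msr1 (0.948) and Ccr2 (0.857), genes that also read highest on caudal array 271. Mrc1 reached at most 0.569 with any other member.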

How the data were processed

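The authors deposited log2 signals from RMA (named in the submitters' processing notes; its version is not given in the sources used here), which were used unaltered. GEO's platform annotation gives 1 symbol for 34945 of the 45101 probe sets, several for 932 and no listed symbol for 9160, and 64 are controls; probe sets with 1 symbol entered, 1 per gene. The 21 grouped arrays were fitted with 6 group means by lmFit and eBayes of limma 3.58.1 under R 4.3.3 (random blocks needed statmod 1.5.0), a procedure tested on simulated data. In each of 9 contrasts p-values were two-sided and Benjamini-Hochberg adjusted over 18193 genes; genes under 0.05 were called. ± after a change is its SE. Array numbers run in blocks with treatment (271 to 274 for 48 h, 277 to 280 for sham, 281 to 283 for 24 h), so an effect of that order and the treatment cannot be told apart. The named genes are all members and the 3 genes with the smallest p of each list at caudal 48 h against sham. Of the 3 with the smallest p of each list at rostral 48 h, only some are named. The same holds for the 2 genes most correlated with each member (clone and predicted names passed over). Others named (Mmp8, S100a8, S100a9, Il1b, Tnf and those past the regional test) were chosen after their values were seen. The members and lists were chosen with earlier results of these data known. Arrays have no read depth; their number limits the precision. Promoters are from RefSeq.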

Additional observations from a re-analysis of the deposited data

Results flagged for a closer look

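The 48 h clamp effect differed between caudal and rostral cord, by a test of the difference itself, for Acod1 (3.81), Gpr84 (3.11), Fcgr1 (2.10) and Cybb (2.26, log2 scale, all larger in caudal cord). Over all genes 0.561% passed that test, 0.407% in that direction. Gpr84 missed in 13 and Cybb in 3 of the 21 fits that left out 1 array.

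Of 30 sets of 4 arrays examined for a single array far from the other 3, 2 stood out, where chance marks about 1 in 20. Ccr2 on caudal 48 h array 271 read 9.31, a gap of 0.953 of the group's range, and Gpr84 on caudal 48 h array 274 read 8.35, a gap of 0.890 of the range. Array 271 is the one with the narrow spread over probe sets and array 274 one of 2 with low 5′ Gapdh signal; the part of either property in these values was not tested.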

How the results depend on the processing

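Across the alternatives no member's call changed direction. Of 3270 member values recomputed, 3199 kept their side of the threshold, 33 lost it and 38 gained it, and 81 uncalled values changed sign. Most of these values belong to results not called in the main fit. The 33 losses fall on the called ones, so the pooled count does not measure how stable the calls are. With array weights 4 members were called at rostral 48 h against sham, where 10.2% of all genes were. Between 24 h and 48 h there were 8 in caudal cord (22.4% of all genes) and 1 in rostral cord (6.18%). Fitting only the compared groups gave 0 members in caudal cord between the times (0% of all genes) and 3 between the sham regions (4.59%). That fit lost Chil3 and Msr1 at caudal 48 h against sham (0.781% of all genes called) and Gpr84 between regions at 48 h (0.511%). Without caudal arrays 271, 274 and 280 there were 8 between the times in caudal cord. Leaving out 1 array at a time gave 4 to 7 members at caudal 48 h against sham, 4 to 7 in caudal cord between the times, 5 to 7 between regions at 48 h and 2 to 4 for the regional difference of the clamp effect, and 0 in the other 5 comparisons. Caudal sham array 278 or 279 gave the 4 at caudal 48 h; these and rostral 48 h array 273 gave the 2. Filtering to genes brighter than the median gene left 0 of the 10 members and so gave no value.

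Calls over all genes moved more: 142 to 6245 at caudal 48 h (2282 reported), 58 to 1850 at rostral 48 h (111), 0 to 293 at caudal 24 h (1), 0 to 3 at rostral 24 h (0), 0 to 4067 (1218) and 21 to 1124 (66) between the times in caudal and rostral cord, 93 to 3801 between regions at 48 h (1766), 0 to 1256 in sham (61) and 42 to 1363 for the regional difference (102). The percentages beside the members' counts carry that uncertainty. For the fits that left out arrays or used blocks, the share of all genes called is not given, and those member counts stand without it.

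Same-numbered arrays of the 2 regions did not deviate together throughout (r -0.449 to 0.534, over 0.1 in 6 of 10 pairs). The lowest r was that of number 283, whose arrays went against their region labels. Numbers 281 and 282, of the same time, had -0.187 and -0.029. Outside 24 h r ran from 0.087 to 0.534, and all 4 pairs at 48 h exceeded 0.1. Of 20 arrays, 13 correlated best with their own number. These values do not settle whether the numbers are pairs, and the main fit did not take them as such. With the number as a replicate block, 6 members were called at caudal 48 h, 6 between regions at 48 h (Msr1 added, adjusted p = 0.0466 as a random and 0.0153 as a fixed block) and 4 for the regional difference; the consensus correlation was 0.138. One alternative was chosen after seeing the data, averaging each gene over its probe sets with caudal array 271 left out, in which Ccr2 was also called at caudal 48 h (0.25, adjusted p = 0.0459).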

Other observations

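The rostral array numbered 276, which the labels place at both 24 h and 48 h, read 5.23 for Acod1, 5.85 for Nos2, 4.44 for Arg1, 5.85 for Chil3, 6.56 for Gpr84, 6.43 for Msr1, 5.96 for Cybb, 7.10 for Fcgr1, 7.26 for Mrc1 and 7.80 for Ccr2. Its summed heart muscle signal was 23704, within the range of the rostral 48 h arrays.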
